A study of Mus musculus with 12 samples.

Results

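The dentate gyrus of Dpy30 knockout (KO) mice was compared with that of control mice by RNA sequencing, gene by gene and transcript by transcript. Of the 12 libraries of the series, 6 came from the dentate gyrus and entered the comparison, 3 control and 3 KO. Control mice carried hGFAP/+;Dpy30F/+ and KO mice hGFAP/+;Dpy30F/-, so that both groups carried hGFAP and 1 floxed allele (Dpy30F), and they differed in the second allele, intact (+) in controls and null (-) in KO. The labels do not spell out hGFAP, which in mouse genetics usually names Cre recombinase driven by the human GFAP promoter, a driver active in radial glia and in the progenitors and neurons and glia that come from them. A KO mouse has 1 allele fewer also in cells without Cre, so that a lower Dpy30 level in this tissue can arise without conditional deletion. The tissue is labelled NSC/NPC, for neural stem and progenitor cells, with surrounding cells. The sources used here give neither age nor the deleted exons nor the strandedness of the libraries. The labels do not say that the libraries came from separate animals, so the p-values measure library-to-library spread only, part of which may be technical. Each group held RNA of both sexes (below), so not all libraries of a group came from the same animal. Within each group the letters a, b and c name the libraries and pair nothing. Levels are FPKM (fragments per kilobase of transcript, relative to library size), scaled by the authors, and the transcript values of each gene were summed. Of 17990 genes, 15454 averaged 0.5 FPKM or more across libraries and were tested.

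DPY30 is a small core subunit shared by the SET1/MLL complexes, which methylate lysine 4 of histone H3 (H3K4). Together with WDR5, RBBP5 and ASH2L it raises the activity of the catalytic subunits, and this mark is found at active promoters and enhancers. The dentate gyrus is the part of the hippocampus in which radial glia-like stem cells generate granule neurons after birth. These neurons pass through intermediate progenitor and immature stages before they receive glutamatergic and GABAergic synapses and send mossy fibres to the CA3 region.

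The depth of each library was read from the steps between low FPKM values. In a transcript of 1 kb, 1 FPKM stood for 26.6 to 42.1 reads in the control libraries and for 48.5 to 65.9 reads in the KO libraries, so every KO library was deeper than every control library. Library correlations over genes ranged from 0.960 to 0.988. The first principal component held 41.8% of the variance and separated the groups, and the second held 27.9% and set control b apart. Control c and KO a carried the RNA of females by Xist and Kdm5d, 1 of 3 in each group. The granule neuron marker Prox1 measured 2.30, 0.963 and 10.7 FPKM in controls (a to c throughout) against 1.93, 1.5 and 1.19 FPKM in KO, and C1ql2 was at 5.53, 0.356 and 9.88 FPKM in controls and at 1.02, 0.485 and 0.168 FPKM in KO. Both markers were thus present but varied most among the controls, with control b at the level of the KO libraries. Dsp and Tdo2, other granule neuron markers, fell below the filter. Summed over the myelin list, control b held 2533 FPKM against 280 and 774 in controls a and c and 158 to 162 in KO. Summed over the choroid plexus list, KO b held 2002 FPKM and control a 628 FPKM against 12.8 to 139 in the other libraries. Their part in the comparison of the groups was not tested.

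Dpy30 itself was the first gene examined. It spans 74299474 to 74323944 on chromosome 17 (GRCm38, minus strand). Controls had 8.43, 8.38 and 10.1 FPKM, against 6.22, 6.89 and 5.68 FPKM in KO. All KO libraries lay below all controls, and the mean was 30.2% lower. On the log2 scale the difference was -0.46 (SE 0.11; limma adjusted p = 0.073). A two-sided exact permutation test gave p = 0.10, the smallest that 3 against 3 libraries allow. Almost all of the gene's FPKM came from 1 transcript, Dpy30-201, whose level went from a mean of 8.34 to 6.08 FPKM. In bulk tissue fewer cells expressing a gene and less RNA per cell cannot be told apart, here and for every gene below. None of the 7 tested genes within 500000 bases of Dpy30 passed the test. The promoter of Dpy30, the 250 bases before and 50 after its start (RefSeq, GRCm38.p6, chr17:74316345-74316644, minus strand), is shown because this gene defines the comparison, with CG dinucleotides in capitals. It holds 34 of them, against a median of 7 in 32851 RefSeq promoters, of which 7.73% hold at least as many.
Dpy30 promoter: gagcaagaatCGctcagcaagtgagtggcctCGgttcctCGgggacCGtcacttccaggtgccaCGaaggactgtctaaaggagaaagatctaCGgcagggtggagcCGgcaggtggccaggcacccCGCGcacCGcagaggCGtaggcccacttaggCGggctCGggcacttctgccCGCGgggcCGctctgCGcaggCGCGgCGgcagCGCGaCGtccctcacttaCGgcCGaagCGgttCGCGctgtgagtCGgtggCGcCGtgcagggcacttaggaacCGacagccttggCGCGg

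The other subunits of the SET1/MLL complexes did not follow Dpy30. Among all 15454 tested genes, 108 passed the limma test with an adjusted p under 0.05 (0.699%), and none of the 19 listed subunits, Dpy30 included, was among them. Of these 19, 15 had a log2 fold change above 0 (65.3% of all tested genes did), and the list median of 0.09 equalled the median of all tested genes, 0.09. The lowest adjusted p belonged to Cxxc1, the CpG-binding subunit of the SET1 complexes, at 14.8, 14.9 and 14.9 FPKM in controls and 18.4, 17.8 and 20.1 FPKM in KO (log2 change, KO minus control, 0.32, SE 0.07, limma adjusted p = 0.071). Setd1a, a catalytic subunit, was at 7.32, 7.19 and 6.52 FPKM in controls and at 5.89, 6.23 and 6.35 FPKM in KO, and its groups did not overlap either (log2 change -0.16, SE 0.08, limma adjusted p = 0.25). The scaffold Wdr5 was at 11.1, 10.7 and 11.5 FPKM in controls and at 13.5, 13.5 and 12.7 FPKM in KO (log2 change 0.24, SE 0.07, limma adjusted p = 0.10). For the enzymes that remove H3K4 methylation, listed with their partners Rcor1 and Rcor2, none of 7 genes passed the test, and the list median was 0.08. For the Polycomb and DNA methylation machinery, none of 18 passed it, and the list median was 0.18.

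Across all genes, 52 rose in KO (0.336%) and 56 fell (0.362%). Many more genes leaned upward than passed: 65.3% of tested genes had a log2 fold change above 0, 25.9% were higher in every KO library than in any control, and 7.82% were lower in every KO library. The largest changes named below were taken from genes that passed with separate groups, so their separation is no further support. Without adjustment, 3019 genes (19.5%) were higher and 1073 (6.94%) lower at p under 0.05. The split of calls depends on scaling. With the log2 values of each library centred on their median, 32 genes passed as higher and 99 as lower. The calls also depend on each library: 2 genes passed when control a was left out, 3 for control b, 2 for control c and 0 for each KO library, while 2723 to 4069 genes had an unadjusted p under 0.05 in these fits. With a term for sex, 3 genes passed, all lower.

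**Figure D1:**
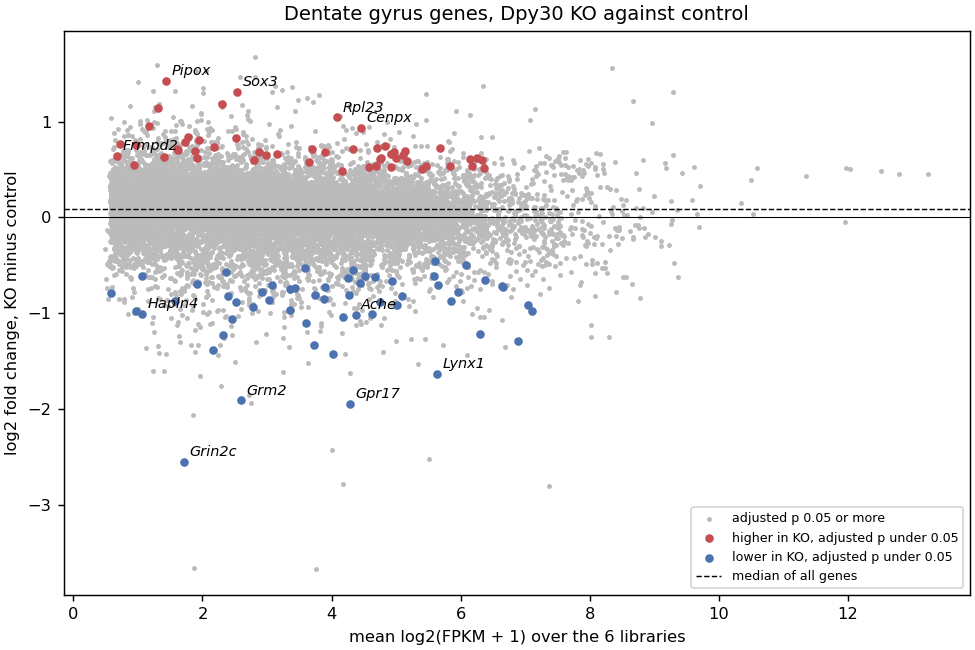
Each point is a tested gene, with its mean log2(FPKM + 1) over the 6 libraries on the horizontal axis and its log2 fold change, KO minus control, on the vertical axis. Red and blue points are the 52 genes that rose and the 56 that fell (limma adjusted p under 0.05), and the dashed line at 0.09 is the median of all genes. Some grey points lie below the blue ones, down to a log2 fold change of -3.66.

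Among the genes that passed, the strongest decrease was that of Grin2c, which encodes the GluN2C subunit of NMDA-type glutamate receptors and in the mouse brain is known from cerebellar granule cells and astrocytes. Grin2c was at 5.63, 8.19 and 7.20 FPKM in controls and at 0.425, 0.270 and 0.396 FPKM in KO. Every control lay far above every KO library, a 19.3-fold difference of the means (log2 change -2.54, SE 0.14, limma adjusted p = 0.00891). Grin2c lies on chromosome 11, from 115249169 to 115267243, and both of its measured transcripts, Grin2c-201 and Grin2c-202, were lower. Grin1, the subunit that all NMDA receptors need, fell less: it was at 103, 109 and 97.3 FPKM in controls and at 72, 63.2 and 61.4 FPKM in KO (log2 change -0.65, SE 0.09, limma adjusted p = 0.048). Grin2a and Grin2d did not pass the test, at -0.91 (SE 0.24; limma adjusted p = 0.089) and -0.67 (SE 0.19; limma adjusted p = 0.093) on the log2 scale. Of the 17 ionotropic glutamate receptor genes, 2 fell, none rose and 14 had a log2 fold change below 0, with a median of -0.28 against 0.09 over all genes, which was -0.43 without control b.

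The promoter of Grin2c (RefSeq, GRCm38.p6, chr11:115267194-115267493, minus strand) is shown as that of the gene with the lowest adjusted p, beside the promoter of Pipox (chr11:77893823-77894122, minus strand), the gene with the largest increase among those that passed. Capitals mark CG dinucleotides, of which the Grin2c window holds 22 and the Pipox window 3. A share of 23.1% of RefSeq promoters hold at least 22, and 76.7% hold at least 3. Promoters of the called genes as sets were not compared, because only 75% of the genes that rose and 69.6% of those that fell have an entry in the promoter table.
Grin2c promoter: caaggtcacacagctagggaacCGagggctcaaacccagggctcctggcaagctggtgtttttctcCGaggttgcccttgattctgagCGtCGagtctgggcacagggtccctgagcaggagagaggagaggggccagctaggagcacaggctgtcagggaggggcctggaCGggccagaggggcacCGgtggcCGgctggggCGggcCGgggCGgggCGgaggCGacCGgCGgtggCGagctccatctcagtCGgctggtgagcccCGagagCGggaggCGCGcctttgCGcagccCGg
Pipox promoter: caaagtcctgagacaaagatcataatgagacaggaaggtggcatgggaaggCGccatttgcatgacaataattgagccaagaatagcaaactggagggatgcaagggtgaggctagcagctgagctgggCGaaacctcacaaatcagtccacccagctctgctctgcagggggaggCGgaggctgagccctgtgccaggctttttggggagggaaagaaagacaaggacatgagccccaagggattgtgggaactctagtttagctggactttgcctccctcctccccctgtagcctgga

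Grm2, the metabotropic glutamate receptor found on mossy fibre terminals, was at 9.23, 9.70 and 13.5 FPKM in controls and at 2.20, 2.12 and 2.04 FPKM in KO, with almost no spread among the KO libraries (log2 change -1.90, SE 0.14, limma adjusted p = 0.028). Grm2 alone among 7 metabotropic glutamate receptor genes passed the test. Mchr1, the receptor of melanin-concentrating hormone, was at 6.78, 6.64 and 7.24 FPKM in controls and at 3.00, 2.20 and 3.29 FPKM in KO (log2 change -1.05, SE 0.13, limma adjusted p = 0.041). Its groups lay well apart, as did those of the orphan receptor Gpr162, which went from 82.7, 72.1 and 76.9 FPKM to 44.0, 43.4 and 38.3 FPKM (log2 change -0.87, SE 0.09, limma adjusted p = 0.034). Lynx1, a membrane-anchored modulator of nicotinic acetylcholine receptors, was at 67.8, 99.2 and 96.0 FPKM in controls and at 22.8, 26.1 and 34.3 FPKM in KO (log2 change -1.63, SE 0.20, limma adjusted p = 0.041). Ache, the enzyme that breaks down acetylcholine, was at 29.7, 25.2 and 30.6 FPKM in controls and at 13.1, 12.7 and 15 FPKM in KO (log2 change -1.01, SE 0.10, limma adjusted p = 0.034). Chrm1, the muscarinic M1 receptor, picked out here after its values were seen, went from 26.3, 26.0 and 27.0 FPKM to 16.3, 17.5 and 14.4 FPKM (log2 change -0.69, SE 0.09, limma adjusted p = 0.042). In each of these genes the lowest control library was above the highest KO library, which the selection of named genes favours (7.82% of all tested genes were lower in every KO library).

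Cntnap1, which anchors myelin loops to the axon beside the node of Ranvier, was at 19.0, 22.3 and 18.7 FPKM in controls and at 6.30, 6.55 and 9.48 FPKM in KO (log2 change -1.33, SE 0.16, limma adjusted p = 0.041). Hapln4, a link protein of perineuronal matrix, was at 2.67, 1.62 and 1.68 FPKM in controls and at 0.565, 0.401 and 0.455 FPKM in KO (log2 change -1.0, SE 0.15, limma adjusted p = 0.049). Tuba4a, an alpha-tubulin of mature neurons, was at 184, 214 and 182 FPKM in controls and at 100, 98.7 and 92.9 FPKM in KO (log2 change -0.98, SE 0.09, limma adjusted p = 0.034). The groups of all 3 genes were separate. Over the list of 13 neurofilament and node genes, Cntnap1 alone passed, yet all 13 had log2 fold changes below 0 and 8 had KO libraries all below the controls (7.82% of all tested genes did). The list median was -0.42 and stayed between -0.43 and -0.31 when each library was left out in turn. The neurofilament gene Nefm was at 45.6, 88.0 and 76.7 FPKM in controls and at 16.8, 22.7 and 31.2 FPKM in KO (log2 change -1.52, SE 0.30, limma adjusted p = 0.061). Nefl was at 101, 104 and 135 FPKM in controls and at 67.8, 51.1 and 46.1 FPKM in KO (log2 change -1.03, SE 0.18, limma adjusted p = 0.055). Both had separate groups but missed the threshold.

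Cadps2, which primes dense-core vesicles, was at 17.8, 16.6 and 16 FPKM in controls and at 8, 7.02 and 6.89 FPKM in KO (log2 change -1.10, SE 0.09, limma adjusted p = 0.028). Doc2a, a calcium sensor of spontaneous and asynchronous release, was at 20.5, 17.7 and 18.3 FPKM in controls and at 8.54, 11.8 and 9.93 FPKM in KO (log2 change -0.85, SE 0.12, limma adjusted p = 0.049). The calcium-binding S100a1 went from 30.01, 38.8 and 33.7 FPKM to 14.5, 16 and 19.2 FPKM (log2 change -1.0, SE 0.13, limma adjusted p = 0.044). S100a13, its neighbour on chromosome 3, fell to a like degree (log2 change -0.97, SE 0.12, limma adjusted p = 0.042). The store-operated calcium channel gene Orai3 fell by 0.81 on the log2 scale (SE 0.12, limma adjusted p = 0.048). Nrip3, whose function is less known, went from 24.6, 20.3 and 34.0 FPKM to 9.46, 9.05 and 8.36 FPKM (log2 change -1.43, SE 0.18, limma adjusted p = 0.042). In all of these genes the groups were separate.

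Chrd encodes chordin, which binds BMPs and blocks their signalling. It was at 5.84, 5.34 and 7.75 FPKM in controls and at 1.70, 1.47 and 2.25 FPKM in KO (log2 change -1.38, SE 0.16, limma adjusted p = 0.041). Rspo1, a secreted enhancer of Wnt signalling, was at 2.1, 1.73 and 1.49 FPKM in controls and at 0.459, 0.191 and 0.590 FPKM in KO (log2 change -0.98, SE 0.14, limma adjusted p = 0.048). Both genes had their highest KO library below their lowest control. Fgf9, a growth factor chosen here after its values were seen, went from 5.23, 5.01 and 5.59 FPKM to 3.39, 3.09 and 3.22 FPKM (log2 change -0.57, SE 0.08, limma adjusted p = 0.048). Chrd was the only one of 21 listed BMP genes that passed. None of 21 listed Wnt, 20 Notch or 10 Hedgehog genes did, where 0.699% of all tested genes passed. Rspo1 was not on the Wnt list. Of the Notch list 19 of 20 had log2 fold changes above 0 (65.3% of all tested genes did), with a median of 0.21 that was 0.10 without KO c. Only 4 of the 20 were higher in every KO library than in any control (25.9% of all tested genes were). Lfng, which modifies Notch receptors, was at 6.32, 6.66 and 7.15 FPKM in controls and at 8.88, 13.3 and 14.8 FPKM in KO (log2 change 0.76, SE 0.18, limma adjusted p = 0.072).

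Among glial genes, Gpr17, a receptor of committed oligodendrocyte precursors, fell from 29.8, 45.2 and 37.7 FPKM to 9.82, 7.79 and 9.26 FPKM (log2 change -1.94, SE 0.16, limma adjusted p = 0.028). C1ql1, a secreted C1q-like protein also on the precursor list, went from 13.3, 13.3 and 13.6 FPKM to 9.06, 8.39 and 9.71 FPKM (log2 change -0.52, SE 0.08, limma adjusted p = 0.050). In both, all KO libraries were below all controls. The precursor list did not move as a block: 2 of 15 fell, none rose, 6 were above 0, and the median of -0.11 was -0.20 without control a and near 0 without control b. Vcan, a matrix proteoglycan of early precursors, was at 2.51, 4.59 and 3.91 FPKM in controls and at 7.05, 8.04 and 10.2 FPKM in KO (log2 change 1.03, SE 0.20, limma adjusted p = 0.061). Myelin genes were lower in KO but far from uniform among controls. Mbp was at 135, 1435 and 431 FPKM in controls and at 64.2, 59.4 and 62.1 FPKM in KO (log2 change -2.80, SE 0.77, limma adjusted p = 0.090). Of 18 tested myelin genes 14 had KO libraries all below the controls (7.82% of all tested genes did), none passed the test, and the median of -1.37 was -1.90 without control a and -0.78 without control b. The tubulin-polymerizing Tppp, abundant in oligodendrocytes, fell from 37.3, 50.2 and 43.5 FPKM to 23.8, 23.2 and 20.7 FPKM (log2 change -0.91, SE 0.12, limma adjusted p = 0.044). Control b, the library with the most myelin RNA, was the highest for both Gpr17 and Tppp, and the part of tissue composition in these differences was not tested.

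Aldoc, the aldolase of astrocytes, was at 164, 189 and 205 FPKM in controls and at 68.9, 75.1 and 81.8 FPKM in KO (log2 change -1.29, SE 0.11, limma adjusted p = 0.028). Its counterpart in neurons among glycolytic enzymes, the enolase Eno2, was at 179, 183 and 176 FPKM in controls and at 97.0, 91.0 and 97.6 FPKM in KO (log2 change -0.91, SE 0.07, limma adjusted p = 0.028). Eno3, the muscle enolase, rose at a far lower level, from 1.74, 1.39 and 1.44 FPKM to 2.97, 3.62 and 3.42 FPKM (log2 change 0.78, SE 0.10, limma adjusted p = 0.044). The 3 genes showed no overlap of groups. Aldoc and Eno2 were the 2 called members of 25 glycolysis and pyruvate genes, whose median was -0.15 and without KO c -0.07. The astrocyte list of 24 genes had a median of -0.10 (-0.21 without KO c, 0.01 without KO a), with 11 genes above 0 and only Aldoc called. Its members moved both ways. Gfap, an intermediate filament of astrocytes and radial glia, was at 61.9, 46.7 and 101 FPKM in controls and at 24.3, 30.1 and 27.2 FPKM in KO (log2 change -1.26, SE 0.26, limma adjusted p = 0.064), whereas Aldh1l1, a folate enzyme of astrocytes picked out after its values were seen, was at 19.1, 21.9 and 20.7 FPKM in controls and at 24.5, 32.4 and 36.9 FPKM in KO (log2 change 0.56, SE 0.15, limma adjusted p = 0.089). The metallothionein Mt3 was at 321, 318 and 449 FPKM in controls and at 186, 188 and 239 FPKM in KO (log2 change -0.82, SE 0.18, limma adjusted p = 0.066). Entpd2, an enzyme that splits extracellular nucleotides, fell from 6.24, 6.25 and 7.94 FPKM to 2.69, 3.52 and 3.51 FPKM (log2 change -0.88, SE 0.13, limma adjusted p = 0.050).

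The neuronal lists had few called members. Of 39 listed potassium channel genes none passed, 35 had log2 fold changes below 0, 15 had KO libraries all below the controls (7.82% of all tested genes did), and the median was -0.37 (-0.46 to -0.35 with each library left out). Kcnj11, a potassium channel gene not on that list, did pass (log2 change -0.70, limma adjusted p = 0.048). Of 12 GABA-A receptor subunits none passed and 10 were below 0, with a median of -0.36. Of 26 voltage-gated sodium and calcium channel genes none passed and 22 were below 0, with a median of -0.24. The channel gene Hcn2, which carries the hyperpolarization-activated current, was at 23.5, 26.9 and 26.5 FPKM in controls and at 14, 16.1 and 18.7 FPKM in KO (log2 change -0.63, SE 0.12, limma adjusted p = 0.057). Its groups did not overlap. Of 25 mature neuron and synaptic vesicle genes 23 were below 0, 13 had KO libraries all below the controls (7.82% of all tested genes did), Eno2 alone fell, and the median was -0.40. Summed over that list the controls held 5058 to 5207 FPKM and the KO libraries 3317 to 4109 FPKM, and the part of neuron number in the receptor and channel genes was not tested. Slc17a7, the vesicular glutamate transporter of hippocampal neurons, was at 552, 405 and 511 FPKM in controls and at 271, 225 and 141 FPKM in KO (log2 change -1.24, SE 0.25, limma adjusted p = 0.063). Of 16 dentate granule neuron genes none passed and the median was -0.27, or -0.17 without KO c. Of 12 CA pyramidal neuron genes none passed and the median was -0.64, which was -0.93 without control b and -0.28 without control c. Of 19 immediate early genes, markers of recent activity, none passed and 18 were below 0, with a median of -0.43 that was -0.67 without KO a and -0.21 without control b. Of 20 GABAergic and striatal neuron genes none passed and 11 were above 0, and the median was 0.29, but -0.17 without control c and 0.83 without control b. Its mean log2(FPKM + 1) was 5.22 in control b, 4.40 in KO b and 4.89 in KO c against 3.33 to 3.61 in the other libraries, so that libraries of both groups stood apart on it. Of 9 thalamic and habenular neuron genes none passed, and the median was 0.04.

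**Figure D2:**
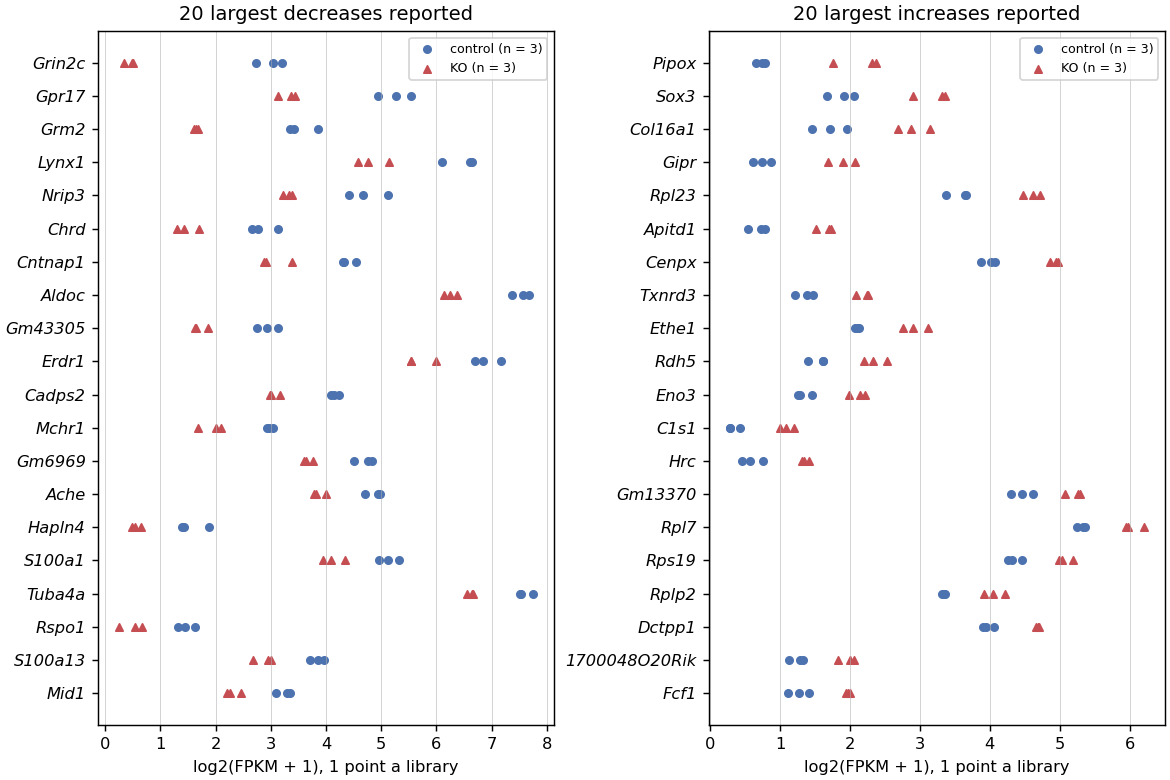
Levels as log2(FPKM + 1), 1 point a library, of the 20 genes with the most negative (left) and the 20 with the most positive (right) log2 fold change among those that passed the test and are reported here. Circles are control and triangles KO libraries (n = 3 each), and the groups do not overlap in any of these genes, which were selected for that.

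On the side of the increases stood a neural progenitor factor. Sox3, a transcription factor of the SoxB1 family that maintains neural progenitors, was at 3.15, 2.19 and 2.79 FPKM in controls and at 6.49, 8.95 and 9.24 FPKM in KO (log2 change 1.31, SE 0.16, limma adjusted p = 0.041). KO libraries lay well above controls, by 3.04-fold in the means. Of the 19 genes listed for radial glia and neural stem cells, Sox3 alone passed, 14 had log2 fold changes above 0, and the median was 0.24 which was 0.10 without KO c and 0.44 without KO a. Fabp7, the brain lipid-binding protein of radial glia, was at 220, 142 and 216 FPKM in controls and at 389, 592 and 758 FPKM in KO (log2 change 1.56, SE 0.28, limma adjusted p = 0.056). Vim, their intermediate filament, was at 17.9, 14.4 and 16.9 FPKM in controls and at 22.5, 37.2 and 40.3 FPKM in KO (log2 change 0.95, SE 0.22, limma adjusted p = 0.071). Hopx, a marker of dentate stem cells and astrocytes picked out after its values were seen, lay the other way, at 29.4, 15.3 and 44.0 FPKM in controls and 18.7, 11.7 and 11.4 FPKM in KO, with overlapping groups (log2 change -0.95, SE 0.38, limma adjusted p = 0.17). Of 28 cell cycle genes none passed and 26 were above 0 (65.3% of all tested genes were), with a median of 0.42 that was 0.28 without KO c. In 9 of the 28 every KO library was above every control (25.9% of all tested genes). The replication clamp Pcna was at 14.4, 14.2 and 15.2 FPKM in controls and at 17.7, 17.8 and 17.4 FPKM in KO (log2 change 0.26, SE 0.07, limma adjusted p = 0.082). Of 9 intermediate progenitor and proneural genes none passed and 8 were below 0, with a median of -0.27 that was -0.41 without control b and -0.14 without control c. Neurog2, a proneural factor of the granule lineage, was at 0.451, 0.672 and 2.03 FPKM in controls and at 0.0885, 0.102 and 0.0502 FPKM in KO (log2 change -0.85, SE 0.26, limma adjusted p = 0.11). Of 19 immature neuron genes none passed, 14 were above 0, and the median of 0.20 became -0.03 without control b.

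Cenpx and Apitd1 (also named Cenps) encode the histone-fold pair that works at kinetochores and in the repair of stalled replication forks. Cenpx was at 13.6, 15.8 and 15.2 FPKM in controls and at 30.5, 28.0 and 29.7 FPKM in KO, 1.97 times the control mean (log2 change 0.94, SE 0.08, limma adjusted p = 0.028). Apitd1 was at 0.452, 0.664 and 0.731 FPKM in controls and at 2.25, 2.31 and 1.85 FPKM in KO (log2 change 0.96, SE 0.11, limma adjusted p = 0.041). Both partners were higher in each KO library. They were the 2 called members of 19 kinetochore and centromere genes, of which 18 were above 0 (65.3% of all tested genes were) and 12 were higher in every KO library (25.9% of all), with a median of 0.29 that was 0.45 without KO a. Cenpm, of the inner kinetochore, was at 1.69, 1.06 and 1.26 FPKM in controls and at 2.79, 3.23 and 2.96 FPKM in KO (log2 change 0.78, SE 0.12, limma adjusted p = 0.053). Dctpp1, which removes modified dCTP from the nucleotide pool, rose from 13.9, 15.7 and 14.5 FPKM to 24.9, 25.1 and 24.3 FPKM (log2 change 0.72, SE 0.07, limma adjusted p = 0.034).

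The cytosolic ribosomal proteins were the list with the most called members. Of 78 genes 7 rose and none fell, 77 had log2 fold changes above 0, 63 were higher in every KO library than in any control (25.9% of all tested genes were), and the median was 0.57 against 0.09 over all genes, with a range of 0.48 to 0.66 over the libraries left out. Among the genes that rose were Rpl23, Rpl7, Rps19, Rplp2 and Rpl18. Rpl23 was at 11.5, 9.39 and 11.6 FPKM in controls and at 25.3, 21.3 and 23.4 FPKM in KO (log2 change 1.04, SE 0.11, limma adjusted p = 0.034). Rpl18 was at 27.7, 25.7 and 26.8 FPKM in controls and at 45.9, 42.8 and 42.7 FPKM in KO (log2 change 0.69, SE 0.07, limma adjusted p = 0.034). In both genes all KO libraries were above all controls. The list ranged from Rps27 at -0.03 to Rpl35 at 1.46, both named after their values were seen as the ends of the range, and Rpl35 was at 2.85, 2.23 and 2.83 FPKM in controls and at 10.8, 4.19 and 15.2 FPKM in KO and did not pass (limma adjusted p = 0.089). Ribosomal protein genes have many near-identical processed pseudogenes, so that their reads can be split between copies, and single values are uncertain for that reason. The 77 mitochondrial ribosomal proteins had no called member, 70 above 0 (65.3% of all tested genes were) and a median of 0.17. The 75 respiratory chain subunits had no called member, 56 above 0 and a median of 0.17. The respiratory chain gene Atp5l was at 47.0, 54.6 and 53.1 FPKM in controls and at 79.3, 73.5 and 71.1 FPKM in KO (log2 change 0.53, SE 0.09, limma adjusted p = 0.054).

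Ribosomal protein transcripts of mammals usually start within a run of pyrimidines. The 15 bases on either side of the RefSeq start (GRCm38.p6) are shown for the 4 called genes with an entry in the promoter table, with the longest run of C or T in capitals. The run was 10 bases in Rpl18 (chr7:45718056-45718085, plus strand) and Rplp2 (chr7:141447636-141447665, plus strand), which 5.34% of all RefSeq promoters reach. It was 4 bases in Rps19 (chr7:24884577-24884606, plus strand) and 3 bases in Rpl23 (chr11:97782425-97782454, minus strand), where the median promoter has 4. Rps19 has 3 starts in the promoter table, and the others are not shown. All of these starts are annotated ones, not measured in these libraries. The gene with the shortest run, Rpl23, had the largest increase of the 4, and a link between run and increase was not tested.
Rpl18 start: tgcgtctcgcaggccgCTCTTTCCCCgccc
Rplp2 start: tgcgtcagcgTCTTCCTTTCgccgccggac
Rps19 start: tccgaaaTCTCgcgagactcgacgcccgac
Rpl23 start: acgaggTCCggtcacgtggctgagtgggcg

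Dnaic1, an intermediate chain of the axonemal dynein of motile cilia, was at 1.90, 1.92 and 1.87 FPKM in controls and at 3.33, 3.65 and 4.12 FPKM in KO (log2 change 0.69, SE 0.09, limma adjusted p = 0.044). Ift43, of the intraflagellar transport machinery, was at 4.95, 5.65 and 5.44 FPKM in controls and at 8.13, 9.56 and 9.21 FPKM in KO (log2 change 0.65, SE 0.09, limma adjusted p = 0.048). Tmem107, of the ciliary transition zone, was at 4.61, 4.6 and 5.26 FPKM in controls and at 7.53, 9.33 and 8.31 FPKM in KO (log2 change 0.69, SE 0.10, limma adjusted p = 0.050). Controls and KO libraries were separate in all 3. Dnaic1 was the 1 called member of 10 ependymal genes, all above 0 (65.3% of all tested genes were), with a median of 0.65. The ependymal regulator Foxj1 was at 4.51, 3.54 and 2.58 FPKM in controls and at 3.76, 12.7 and 11.6 FPKM in KO, with KO a inside the control range (log2 change 1.06, SE 0.41, limma adjusted p = 0.16).

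**Figure D3:**
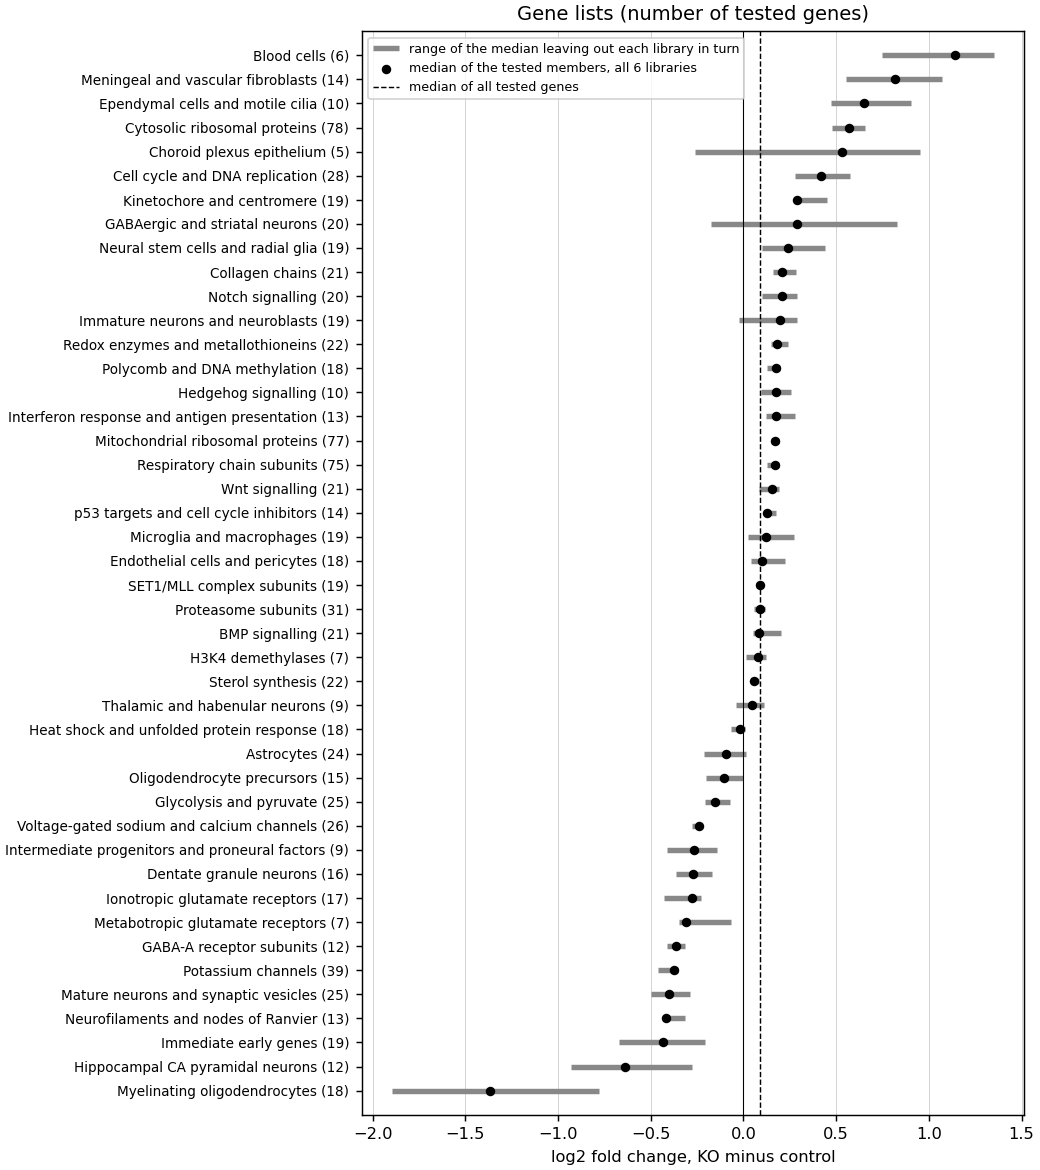
Median log2 fold change (KO minus control) of the tested members of each of the 44 lists, with the number of tested genes in brackets. Dots are medians over all 6 libraries, bars the range of the median with each library left out in turn, and the dashed line is the median of all tested genes, 0.09. Blood, fibroblast, ependymal and cytosolic ribosomal lists lie highest and myelin, CA pyramidal and immediate early lists lowest.

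Pipox, a peroxisomal enzyme that oxidizes pipecolic acid and sarcosine, had the largest increase among the genes that passed: it was at 0.716, 0.579 and 0.669 FPKM in controls and at 2.40, 4.16 and 3.97 FPKM in KO (log2 change 1.42, SE 0.17, limma adjusted p = 0.041). Gipr, the receptor of glucose-dependent insulinotropic peptide, was at 0.525, 0.674 and 0.838 FPKM in controls and at 2.72, 2.23 and 3.21 FPKM in KO (log2 change 1.14, SE 0.13, limma adjusted p = 0.041). Both were low-level genes with separate groups. C1s1, a protease of the complement cascade, rose from 0.219, 0.346 and 0.219 FPKM to 1.31, 0.996 and 1.13 FPKM (log2 change 0.76, SE 0.10, limma adjusted p = 0.042). Txnrd3, a thioredoxin reductase, rose from 1.77, 1.32 and 1.60 FPKM to 3.24, 3.72 and 3.77 FPKM (log2 change 0.84, SE 0.10, limma adjusted p = 0.042), and was the 1 called gene of 22 redox enzymes and metallothioneins. Ethe1, a mitochondrial sulfur dioxygenase, rose from 3.19, 3.38 and 3.29 FPKM to 7.69, 6.45 and 5.78 FPKM (log2 change 0.83, SE 0.11, limma adjusted p = 0.044). In each of them the KO libraries were the upper 3. At such levels a gene of 1 kb at 0.5 FPKM rests on 13.3 to 33.0 reads per library.

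Col16a1, a fibril-associated collagen, rose from 2.90, 1.73 and 2.29 FPKM to 5.42, 6.30 and 7.82 FPKM (log2 change 1.19, SE 0.17, limma adjusted p = 0.048), the 1 called gene of 21 collagen chains. The fibroblast list beside it had no called member of 14, all above 0 and a median of 0.82, and its summed level was 241 to 880 FPKM in controls and 666 to 898 FPKM in KO. Col1a2, a fibrillar collagen of fibroblasts, was at 7.89, 4.02 and 5.75 FPKM in controls and at 11.1, 10.1 and 13.8 FPKM in KO (log2 change 0.91, SE 0.22, limma adjusted p = 0.076). The part of fibroblasts in the increase of Col16a1 was not tested. Blood genes were higher in KO with no called member of 6 and a median of 1.14, and their summed level was 800 to 1243 FPKM in controls and 1475 to 4160 FPKM in KO. Of 19 microglia and macrophage genes none passed and the median was 0.12 (0.02 without KO c, 0.27 without KO a), and of 18 endothelial and pericyte genes none passed and the median was 0.10 (0.04 without KO c, 0.23 without KO a). Of 14 p53 targets none passed (median 0.13), nor did any of 13 interferon and antigen presentation genes (median 0.17) or 18 heat shock genes (median -0.02).

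The genes that rose were shorter than those that fell. Their median transcript length was 982 bases against 2443 bases for the genes that fell and 2578 bases for all tested genes, and 26 of the 52 were shorter than 1000 bases, as were 13.4% of all genes. Over all genes the median log2 fold change went from 0.20 in the shortest decile, where 76.7% were above 0, to 0.03 in the longest decile, where 57.8% were. The shortest decile held 21 genes that rose and 4 that fell, and the longest held 0 and 2. Among protein-coding genes outside the ribosomal and respiratory lists the medians of the same length ranges were 0.25 (n = 372) and 0.03 (n = 1524), a comparison that changed both the gene type and the lists. Chromosome 7 carried 12 of the 52 genes that rose (23.1%) and 7 of the 56 that fell (12.5%), where it holds 7.53% of tested genes. Among the 108 genes, 6 are processed pseudogenes, 5 higher and 1 lower, against 1248 of all 15454 tested genes. The spans of 27 of the 108 overlap another tested gene, for example Gpr17 with Lims2 and Chrd with Thpo on opposite strands. Entpd2 overlaps Npdc1 on the same strand. How many of all tested genes overlap another was not counted. Exons were not compared. Without known strandedness, reads from exons shared by opposite strands cannot be told apart.

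**Figure D4:**
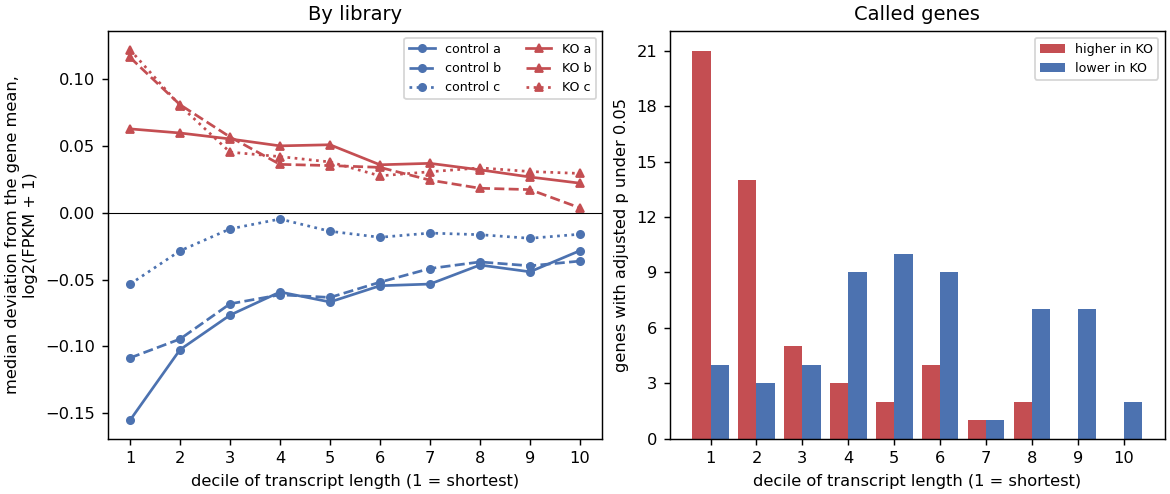
Left, median deviation of each library from the mean of each gene, in log2(FPKM + 1), by deciles of transcript length from shortest (1) to longest (10), with 1 line a library. Right, number of genes that rose or fell (limma adjusted p under 0.05) in each decile. The KO lines lie above the control lines in every decile and furthest apart in the first, where 21 genes rose and 4 fell.

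Single transcripts were tested next. Of 31385 transcripts with a mean of at least 0.5 FPKM, 1 passed the limma test (0.00319%), Grin2c-201, which went from 4.11, 5.05 and 4.69 FPKM to 0.350, 0.236 and 0.335 FPKM (log2 change -2.10, SE 0.12, limma adjusted p = 0.021). The next lowest adjusted p was 0.074, and 5819 transcripts (18.5%) had an unadjusted p under 0.05. In 60 of the called genes at least 2 transcripts could be tested, and in 48 of those all went the same way. That agreement is partly built in, because the value of a gene is the sum of its transcripts. It was not counted for the other genes. The authors' deposited table, made from the same libraries with another test, lists 13 transcripts at an FDR under 0.05, 9 lower and 4 higher in KO. Its lower transcripts include Eno2-213, Mchr1-201, Grina-201, Tuba4a-205 and Grin2c-202, the last with a 42.2-fold difference in the authors' deposited table. Its higher ones are Rpl7-205, Rpl7a-201, Rpl26-201 and AC131120.2-201. At p of at most 0.05, 4199 of the 4914 tested transcripts of the authors' deposited table (85.5%) were also under 0.05 in limma without adjustment, which is 72.2% of the limma list.

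A further test asked whether the transcripts of a gene differed from each other in their response. Of 7134 genes with at least 2 tested transcripts, 49 passed limma's F test for such differences (0.687%), and 2 of them, Rdh5 and Epb41l1, had also passed as genes. In 27 of the 49, transcripts moved in opposite directions at an unadjusted p under 0.05. The F test selects for such differences, and the share over all 7134 genes was not counted. The genes concerned had a median of 5 tested transcripts, against 3 in all genes of the test. The F test pools the spread of all transcripts of a gene as if they were independent. They come from the same 6 libraries and can share reads, so its p-values can be too small, above all in genes with many transcripts. Without KO c the number that passed was 20, and it was 44 to 53 without any one of the other libraries. FPKM of single transcripts depends on how reads were shared between overlapping isoforms, a step that the sources used here do not describe.

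For 11 of the 49 genes, a pair of transcripts differed by a coding segment of at most 75 bases within shared flanks. The segments of 8 of them are printed because they are the coding difference between isoforms whose levels diverged. The printed pairs also differ by other exon bases, 334 in Apbb1, 803 in Men1, 1 in Suz12, 3133 in Dlgap1, 1182 in Ttc19, 559 in Commd6 and 0 in Ints8 and Rundc3a, so that most of the shares below do not measure the segment alone. Each is read from the GENCODE vM21 transcripts on GRCm38, with the segment in capitals and 12 bases on either side in lower case, and the segments were picked out after the values were seen. The lengths are 6 bases in Apbb1 (chr7:105565946-105565951, minus strand), 15 in Men1 (chr19:6335906-6335920, plus strand), 69 in Suz12 (chr11:79999057-79999125, plus strand), 30 in Dlgap1 (chr17:70718196-70718225, plus strand), 39 in Ttc19 (chr11:62284131-62284169, plus strand), 51 in Ints8 (chr4:11211882-11211932, minus strand), 12 in Commd6 (chr14:101640288-101640299, minus strand) and 24 in Rundc3a (chr11:102400637-102400660, plus strand). Each printed length is a multiple of 3, which keeps the reading frame. The genes were selected by the F test, and the pair with the most different changes was taken in each. Separate groups in the values below are therefore no further support.
Apbb1: ggacagtggaagAGAGAGggactttgccta
Men1: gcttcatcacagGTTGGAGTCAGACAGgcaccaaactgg
Suz12: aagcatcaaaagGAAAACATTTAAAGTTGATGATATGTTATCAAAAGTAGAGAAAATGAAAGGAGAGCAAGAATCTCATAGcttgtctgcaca
Dlgap1: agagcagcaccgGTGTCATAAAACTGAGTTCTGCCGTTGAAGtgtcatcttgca
Ttc19: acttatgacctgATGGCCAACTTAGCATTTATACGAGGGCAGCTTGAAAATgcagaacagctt
Ints8: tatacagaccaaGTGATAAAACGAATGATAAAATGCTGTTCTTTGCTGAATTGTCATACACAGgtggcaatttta
Commd6: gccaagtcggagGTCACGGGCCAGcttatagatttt
Rundc3a: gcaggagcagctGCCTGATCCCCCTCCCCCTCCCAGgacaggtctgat

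Apbb1 encodes the adaptor FE65, which binds the amyloid precursor protein, and its 6-base exon is a microexon known from neurons. Apbb1-205, without the microexon, was at 18.3, 14.9 and 10.6 FPKM in controls and at 0.886, 1.52 and 3.37 FPKM in KO. Apbb1-209, with it, was at 4.61, 3.94 and 3.58 FPKM in controls and at 18.4, 15.2 and 7.57 FPKM in KO. Both transcripts had separate groups and moved oppositely, and Apbb1 had the lowest adjusted p of the F test (limma adjusted p = 7.06e-08), while the gene as a whole did not pass (log2 change -0.26, limma adjusted p = 0.24). Summed over all Apbb1 transcripts that span the site, those with the microexon held 58.4%, 68.8% and 69.4% of the FPKM in controls and 90.8%, 88.4% and 77.0% in KO.

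Men1 encodes menin, a subunit of the MLL1 and MLL2 complexes to which DPY30 also belongs. Men1-203, without the 15 bases, was at 0.208, 0.237 and 0.293 FPKM in controls and at 2.65, 1.78 and 2.65 FPKM in KO. Men1-207, with them, was at 2.31, 2.13 and 2.08 FPKM in controls and at 0.628, 1.17 and 0.395 FPKM in KO. The groups of both were separate and the F test passed (limma adjusted p = 2.61e-07), while the level of the whole gene was 21.9 ± 1.73 FPKM in controls and 20.6 ± 1.13 FPKM in KO (SD, n = 3; limma adjusted p = 0.54). The share of spanning FPKM with the segment was 9.76%, 10.5% and 9.48% in controls and 2.92%, 5.57% and 2.05% in KO, so that most Men1 RNA lacked it in both groups. Suz12, a core subunit of the Polycomb repressive complex that methylates lysine 27 of histone H3, showed a shift in its 69-base exon. Suz12-201, which has it, was at 2.11, 2.37 and 2.96 FPKM in controls and at 4.56, 4.54 and 4.50 FPKM in KO. Suz12-206, which lacks it, was at 2.90, 2.62 and 2.00 FPKM in controls and at 1.31, 1.60 and 2.08 FPKM in KO, and its groups overlapped slightly. The share with the exon was 42.2%, 47.5% and 59.6% in controls and 77.6%, 73.9% and 68.4% in KO (limma adjusted p of the F test = 0.039).

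In neuronal genes the isoforms shifted as well. Dlgap1, a scaffold protein of the postsynaptic density, had 39.1%, 32.5% and 32.8% of its spanning FPKM in transcripts with the 30-base exon in controls and 22.9%, 22.0% and 17.3% in KO (limma adjusted p of the F test = 0.0058). Rundc3a, a neuronal RUN-domain protein, went from 1.04%, 2.06% and 0.817% to 6.32%, 3.87% and 4.05% (limma adjusted p of the F test = 0.0022). In both of these genes the shares of the groups did not overlap, which their selection by the F test on the same libraries favours.

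Further genes with such segments act in other processes of the cell. Ttc19, of the assembly and upkeep of respiratory complex III, held 80.0%, 85.1% and 81.4% of its spanning FPKM with the 39-base exon in controls and 99.1%, 98.8% and 95.7% in KO (limma adjusted p of the F test = 0.00026). Ints8, of the Integrator complex that processes small nuclear RNAs, went from 73.4%, 70.5% and 83.0% to 92.0%, 94.6% and 88.7% (limma adjusted p of the F test = 0.038). Commd6 went from 17.4%, 34.7% and 17.3% to 73.1%, 45.4% and 79.9% (limma adjusted p of the F test = 0.031), the widest shift in the means, from 23.1% to 66.1%. The shares were separate between groups in all of them, which their selection by the F test on the same libraries favours. KO b was the nearest to the controls in Commd6. In Sptan1 and Dbn1, the other two genes with such a pair, the shares of the groups overlapped.

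**Figure D5:**
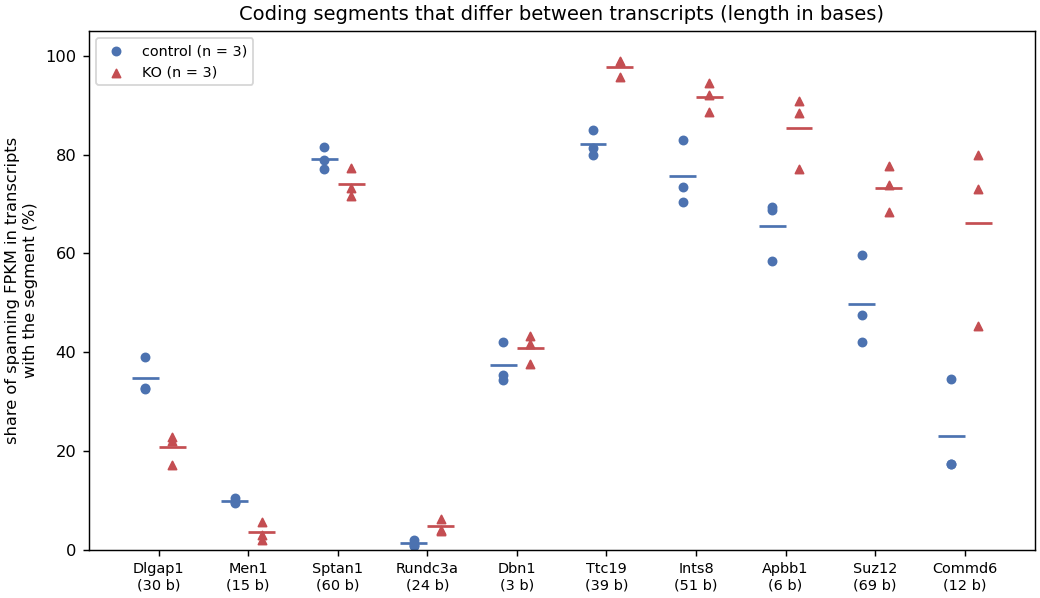
Share of the FPKM of transcripts spanning a segment that belongs to transcripts with the segment, in percent, for 10 of the genes, with the segment length in bases under each name. Circles are control and triangles KO libraries (n = 3 each) and bars are means. The KO points lie below the controls in Dlgap1 and Men1 and above them in Rundc3a, Ttc19, Ints8, Apbb1, Suz12 and Commd6.

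Of the other genes among the 10 with the lowest p of the F test, Celf3, a neuronal splicing regulator, had a non-coding transcript, Celf3-207, at 7.69, 6.41 and 5.38 FPKM in controls and at 0.947, 1.35 and 0.177 FPKM in KO (limma adjusted p of the F test = 9.16e-05). Chd8, a chromatin remodeller, had opposite shifts: Chd8-201 was at 2.08, 1.84 and 2.04 FPKM in controls and at 3.26, 3.28 and 3.55 FPKM in KO. Chd8-210 was at 3.21, 2.88 and 2.94 FPKM in controls and at 1.87, 1.47 and 1.12 FPKM in KO (limma adjusted p of the F test = 0.0019). The whole Chd8 gene differed by 0.13 on the log2 scale (limma adjusted p = 0.27). Ilvbl showed the same kind of exchange: Ilvbl-203 went from 0.663, 1.21 and 1.38 FPKM to 0.124, 0.105 and 0.118 FPKM, and Ilvbl-209 from 2.27, 1.27 and 1.62 FPKM to 3.02, 3.27 and 3.68 FPKM (limma adjusted p of the F test = 0.0019). In Tsc22d4, the transcript Tsc22d4-205 went from 26.3, 39.9 and 34.4 FPKM to 11.7, 13.8 and 13.5 FPKM, all KO libraries below all controls (limma adjusted p of the F test = 0.0026).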

How the data were processed

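PolyA+ RNA was sequenced from 6 dentate gyrus libraries, 3 control and 3 KO. The deposited FPKM values (40483 transcripts) were scaled by TMM by the authors, per the name of the table. Upstream, GRCm38 (mm10), Partek, TopHat2 2.1.0 and CASAVA 1.8.4 are named, without roles, in the submitters' processing notes. The authors' deposited table gives, per the file headers, a p-value, a step-up FDR and a signed fold score (control over KO) per transcript. The sources used here do not give its model. The tables were joined by gene name and group means (relative tolerance 0.0001); 56 rows matched several transcripts of a gene.

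Transcripts were summed per gene, and genes averaging 0.5 FPKM or more were kept. Log2(FPKM + 1) was tested with limma 3.58.1 in R 4.3.3 (eBayes with trend), with Benjamini-Hochberg adjustment over all features tested at 0.05. Log2 fold changes are on that scale, which understates changes of low genes. Isoform differences were tested with limma's diffSplice F test. The fits were tested on simulated data. FPKM holds no counts: 55.3% to 63.4% of low values lay within 0.1 of whole reads (chance 20%), too few to recover reads, so no count model was used. Lengths, coordinates and transcripts come from GENCODE vM21, promoters from RefSeq.

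The 44 lists (989 genes, 938 tested) and the comparison were chosen with earlier results of these data known. List counts and medians are descriptions, with no test. Some genes are not reported here. Named genes are the 30 largest changes in each direction among genes that passed with separate groups, called list members and the 4 with the lowest p in each list, the SET1/MLL subunits, and the 10 isoform genes with the lowest p or with opposite transcripts. Alternatives were another pseudocount, other filters, quantile normalization, median centring, other variance models, library weights, a sex term and leaving out each library.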

Additional observations from a re-analysis of the deposited data

How the results depend on the processing

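No paired analysis was possible because the columns carry no replicate number. Against 108 genes (52 higher, 56 lower), 76 (34 and 42) passed with a pseudocount of 0.1, 100 (50 and 50) with no filter, 241 (137 and 104) with a mean of at least 2 FPKM, 129 (43 and 86) after quantile normalization, 131 (32 and 99) after median centring, 38 (13 and 25) without the variance trend, 74 (34 and 40) with robust estimation, 3 (0 and 3) with a sex term, and 4026 (2787 and 1239) with library weights, where KO b had a weight of 8.42 and the others 0.472 to 1.43. Of the 108 genes themselves, 92 still passed with no filter, 97 at 2 FPKM, 94 after quantile normalization and 88 after median centring. The number was 76 with a pseudocount of 0.1, 74 with robust estimation, 38 without the variance trend and 108 with library weights. Only 3 of them still passed with the sex term, 2 without control a, 1 without control b, 1 without control c and 0 without any one KO library. Leaving out 1 library gave 0 to 3 genes (0 higher, 0 to 3 lower). Grin2c stayed called without control a or control b and with the sex term, and Grm2 without control c and with the sex term. Among transcripts 1 passed, 51 with library weights (13 higher, 38 lower), 0 with a sex term and 0 to 1 with a library left out. The 49 isoform genes became 103 by Simes' method, 32 at a mean of at least 2 FPKM and 20 to 53 with a library left out. Dpy30 had a log2 fold change of -0.41 with an adjusted p of 0.021 under library weights, and adjusted p-values of 0.062 to 0.22 otherwise. No result in these tables changed sign among the genes that passed. List medians changed sign for immature neurons (-0.03 without control b), GABAergic and striatal neurons (-0.17 without control c, -0.07 without KO c), astrocytes (0.01 without KO a), choroid plexus (-0.26 without KO b), heat shock genes (0.01 without KO c), sterol synthesis (-0.02 after median centring), and thalamic and habenular neurons in 6 settings (-0.06 to -0.01). The cause of these shifts was not tested. Genes of low level rest on few reads: 0.5 FPKM over 1 kb stands for 13.3 reads in control b and 33.0 in KO a.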

Other observations

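Of the 108 genes that passed, 48 lie outside the 60 with the largest changes and were picked out here after their values were seen. Polr2f, a subunit shared by all nuclear RNA polymerases, was at 61.5, 56.1 and 65.0 FPKM in controls and at 87.3, 99.8 and 94.8 FPKM in KO (log2 change 0.62, limma adjusted p = 0.048). Polr2i, of RNA polymerase II, was at 20.6, 20.9 and 20.1 FPKM in controls and at 29.9, 29.7 and 31.1 FPKM in KO (log2 change 0.53, limma adjusted p = 0.041). Polr1d, of RNA polymerases I and III, was at 17.8, 19.1 and 20.1 FPKM in controls and at 28.3, 28.5 and 26.4 FPKM in KO (log2 change 0.52, limma adjusted p = 0.048). Each KO library was above each control in all 3. Rfc2, which loads the replication clamp, was at 28.8, 28.6 and 28.0 FPKM in controls and at 46.4, 42.2 and 41.6 FPKM in KO (log2 change 0.59, limma adjusted p = 0.041). Nsmce1, of the SMC5/6 complex, went from 9.53, 8.66 and 9.68 FPKM to 13.5, 15 and 14.6 FPKM (log2 change 0.58, limma adjusted p = 0.046). Cep57, of the centrosome, went from 4.75, 4.70 and 4.54 FPKM to 6.81, 7.77 and 8.14 FPKM (log2 change 0.60, limma adjusted p = 0.050). Frmpd2, a scaffold protein, was at 0.296, 0.314 and 0.217 FPKM in controls and at 1.01, 0.996 and 0.976 FPKM in KO (log2 change 0.64, limma adjusted p = 0.042).

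Phyh, which starts the breakdown of phytanic acid in peroxisomes, went from 16.5, 18.1 and 19.97 FPKM to 10.8, 11 and 9.92 FPKM (log2 change -0.73, limma adjusted p = 0.042). Degs1, the desaturase that makes ceramide, went from 23.1, 23.1 and 23.5 FPKM to 15.05, 16.5 and 15.5 FPKM (log2 change -0.54, limma adjusted p = 0.042). The groups were separate in both. Kcnj11, the pore of ATP-sensitive potassium channels, which was not on the potassium channel list, went from 8.52, 10.6 and 10.5 FPKM to 5.68, 5.35 and 5.89 FPKM (log2 change -0.70, limma adjusted p = 0.048). Egfl6, a secreted matrix protein at a low level, went from 0.888, 0.900 and 1.08 FPKM to 0.112, 0.0915 and 0.207 FPKM, a 6.98-fold difference of the means (log2 change -0.78, limma adjusted p = 0.041). Among the larger decreases, Erdr1, assigned to the Y chromosome in the annotation, was at 102, 114 and 143 FPKM in controls and at 62.6, 45.3 and 45.3 FPKM in KO (log2 change -1.22, limma adjusted p = 0.048), with the female libraries control c and KO a the highest of their groups. Mid1, on the X chromosome, fell from 8.79, 9.13 and 7.56 FPKM to 4.52, 3.64 and 3.78 FPKM (log2 change -0.93, limma adjusted p = 0.041).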
